A study of Rattus norvegicus with 2 samples.

Results

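Blood vessel genes were compared between irradiated and non-irradiated rat skin. The set held 46 gene names for endothelial identity, endothelial transcription factors, lymphatic markers, the VEGF, angiopoietin, apelin and Notch pathways and leukocyte adhesion. Genes were taken from the deposited mRNA table by an exact match of their symbol, which found 45 of the 46 among 22312 genes. The exception was Vegfd, whose older symbol Figf has a row of its own that is described separately. The irradiated skin was exposed once to an electron beam, at 45 Gy, in a study of skin fibrosis after radiation. The non-irradiated skin is labelled as an area that was not exposed, and whether it came from the same animals is not stated. All skin came from male Sprague-Dawley rats aged 4 weeks, and no genetic change is labelled in either group. With 1 library per group the differences below were not replicated, and none was tested.

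The labels do not give the time from irradiation to sampling, the number of animals or any pooling of RNA. The library labelled as 45 Gy skin carries the title NC, which the labels do not expand. Every direction below rests on the source label and would be inverted if the labels were exchanged. The table held an estimated 11197474 reads for irradiated skin and 12649571 for non-irradiated skin.

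Vessels are lined by endothelial cells, which hold together through adhesion molecules such as PECAM1 and VE-cadherin. VEGF ligands bind receptor tyrosine kinases on these cells and drive vessel growth and permeability, while angiopoietins act through the receptor TIE2 on vessel stability. In skin, keratinocytes are a known source of VEGF-A, and in muscle the fibres are. Irradiation is known to injure the microvasculature of skin.

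Of 13 measured blood endothelial identity genes, those averaging 1 FPKM or more, 11 had a log2 ratio below 0, against 32.0% of all measured genes. Only Emcn and Plvap of the 13 were at least 2-fold lower in irradiated skin, against 1.53% of all measured genes. The ligand gene Vegfa and the adhesion gene Icam1 had higher values in irradiated skin that lay within 2-fold on the log2(FPKM + 1) scale, with counting intervals above equality. The 18 blood endothelial identity genes summed to 45.6 FPKM in irradiated skin and 65.4 FPKM in non-irradiated skin, a ratio of 0.697. FPKM relates reads to transcript length and library size, so levels of different genes can be compared. The lowest ratios belonged to Emcn and Plvap, and the highest, among genes that averaged 1 FPKM or more, belonged to Icam1. In bulk tissue, fewer endothelial cells, less RNA per endothelial cell and a larger share of RNA from other cells cannot be told apart.

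The sequences upstream of these 3 genes are shown because they mark both ends of the range of ratios. Each is the 250 bases before the start site annotated by RefSeq on GRCr8, on the strand of the gene. Capitals mark GGAAG or its reverse complement, a form of the site bound by ETS factors, in Emcn and Plvap. In Icam1 they mark GGAAATTCC, a form of the NF-kB site, and TATAAA, the TATA box. The windows lie at chr2:228564289-228564538 on the plus strand for Emcn, at chr16:18231280-18231529 on the minus strand for Plvap and at chr8:27829595-27829844 on the plus strand for Icam1.
Emcn: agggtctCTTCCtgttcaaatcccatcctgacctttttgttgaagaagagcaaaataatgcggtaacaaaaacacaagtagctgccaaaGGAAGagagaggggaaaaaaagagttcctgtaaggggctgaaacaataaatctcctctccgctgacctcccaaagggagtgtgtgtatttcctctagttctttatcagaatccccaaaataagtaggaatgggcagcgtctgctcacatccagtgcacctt
Plvap: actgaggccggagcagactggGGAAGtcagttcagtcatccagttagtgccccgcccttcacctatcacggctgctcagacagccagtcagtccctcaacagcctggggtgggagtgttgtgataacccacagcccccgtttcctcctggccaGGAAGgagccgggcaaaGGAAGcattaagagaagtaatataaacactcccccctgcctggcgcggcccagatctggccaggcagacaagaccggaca
Icam1: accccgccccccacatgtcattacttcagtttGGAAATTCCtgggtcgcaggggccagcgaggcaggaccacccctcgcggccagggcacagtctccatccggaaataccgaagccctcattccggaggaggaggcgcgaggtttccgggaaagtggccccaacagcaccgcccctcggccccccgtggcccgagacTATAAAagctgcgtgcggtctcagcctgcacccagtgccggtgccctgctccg

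RefSeq windows matched 28 of the 46 names by symbol, with 32 start sites. GGAAG stood on either strand in 2 places in the Emcn window and in 3 in the Plvap window. It was found in 59.4% of the 32 windows and in 63.3% of the 33469 windows of all genes, so its presence does not set these genes apart. GGAAATTCC was found in 1 of the 32 windows, that of Icam1, and in 0.287% of all windows. TATAAA was found in 18.8% of the 32 windows and in 12.9% of all windows. The Plvap window also holds TATAAA, which is not marked, and the Icam1 window holds no GGAAG. Other forms of the ETS site were not searched for and are not marked in any window. The motifs marked do not overlap each other, and a match of letters is not a binding site.

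**Figure D1:**
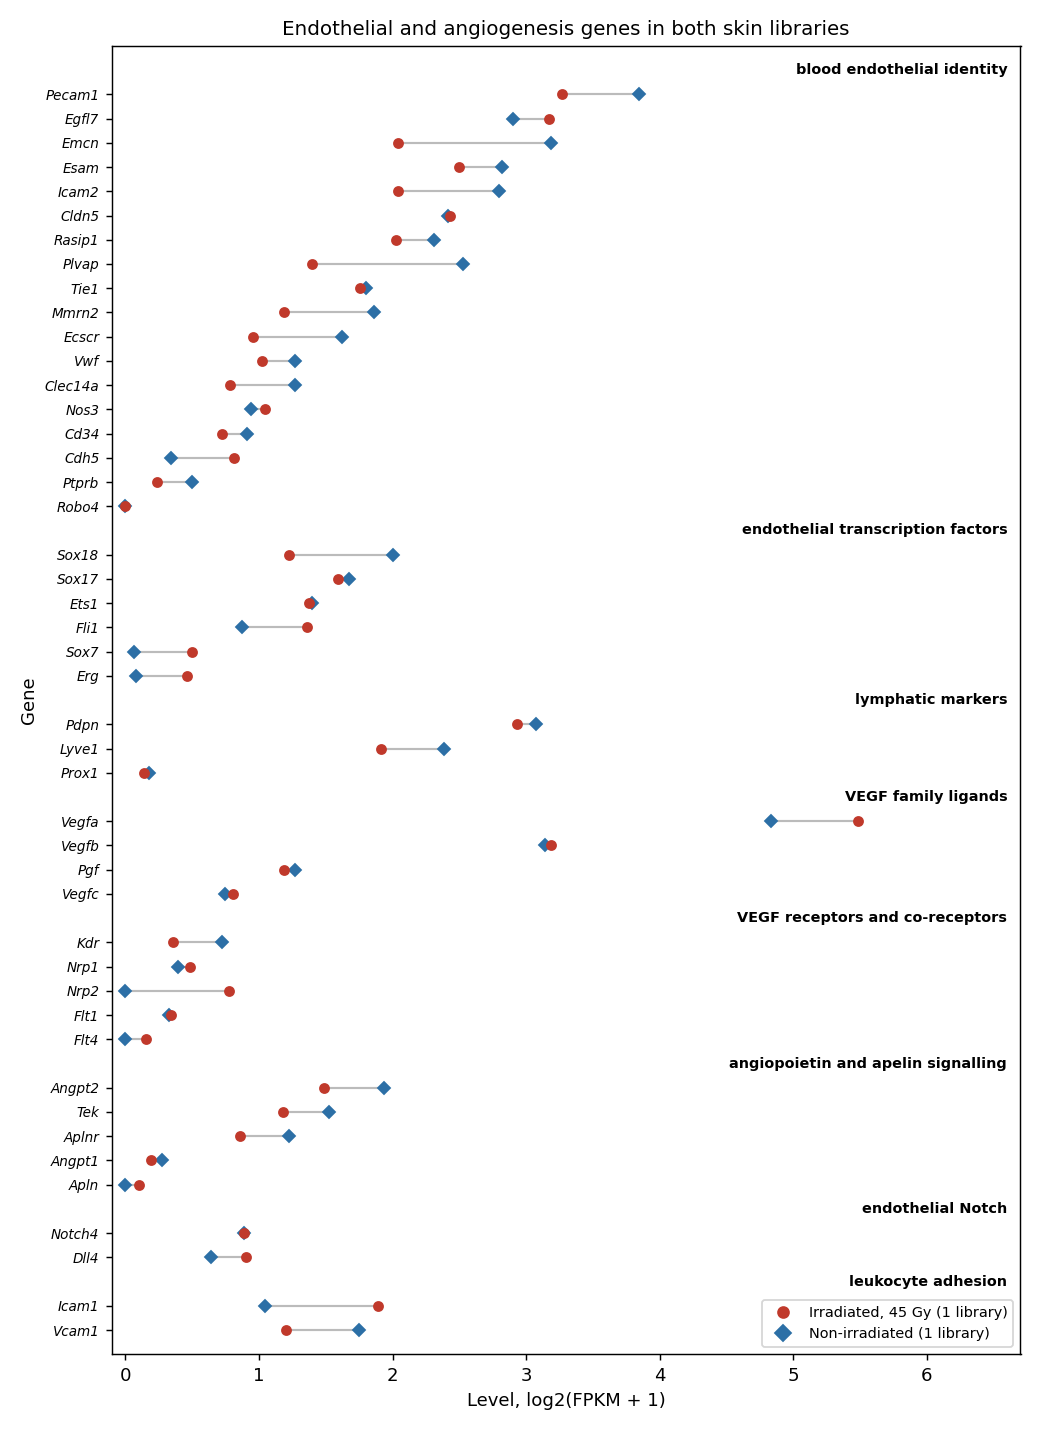
Level of each of the 45 genes as log2(FPKM + 1), by group of genes, with a circle for the irradiated library and a diamond for the non-irradiated library. Vegfa stands to the right of all others in both libraries, Emcn and Plvap show wide gaps with the circle on the left, and Robo4 is at 0 in both.

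Of the 45 genes, 27 averaged 1 FPKM or more over the pair of libraries and are called measured here. Their ratios were taken as log2((irradiated FPKM + 1)/(non-irradiated FPKM + 1)), a scale on which differences of low genes come out too small. Ratios lay below 0 for 21 of the 27 and above 0 for 6, while 32.0% of all 9743 measured genes lay below 0. Below the median of all genes lay 23 of the 27, against 50.0% of all genes by construction. The median of the 27 was -0.32, against 0.21 for the 9743 genes. Relative to that median of all genes it was -0.53. None of the 27 was at least 2-fold higher, where 9.70% of all genes were. Emcn and Plvap were at least 2-fold lower, where 1.53% of all genes were, and 25 lay within 2-fold.

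**Figure D2:**
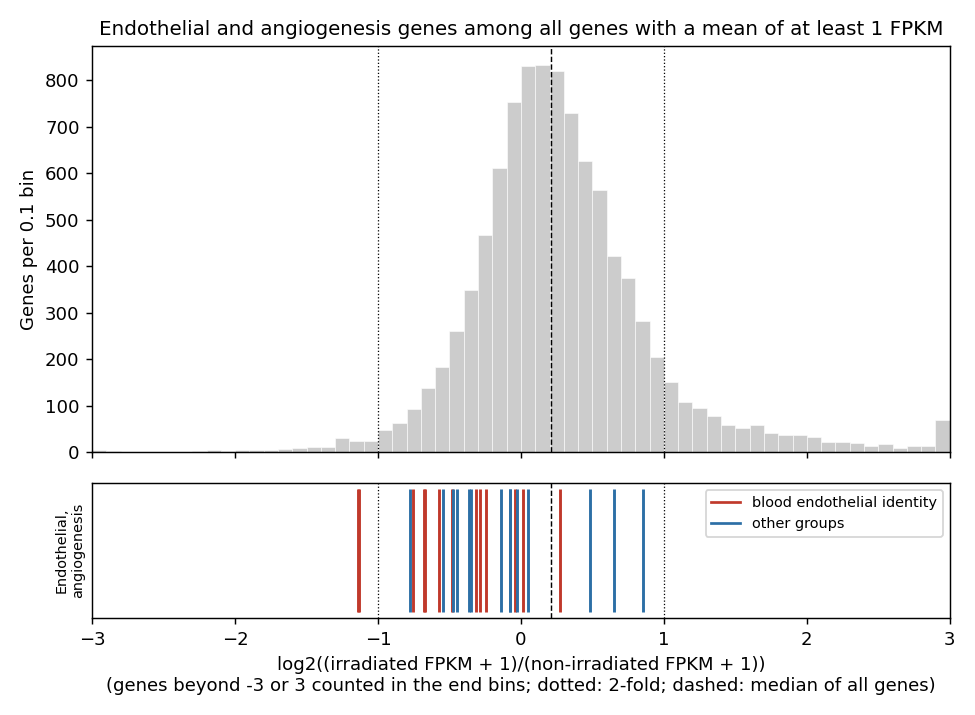
Number of genes per 0.1 bin of the log2 ratio for the 9743 measured genes (top), and the ratios of the 27 endothelial and angiogenesis genes among them (bottom, 1 line per gene). Of the blood endothelial identity genes 12 of 13 lie left of the median of all genes at 0.21.

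Counting error was judged from estimated reads, as the log2 ratio of scaled counts without a pseudocount. For 38 of the 45 genes at least 20 reads lay over both libraries. Their 95% exact Clopper-Pearson counting intervals compare these 2 libraries and not the conditions. The interval lay below 0 for 14 of the 38, where it did for 14.4% of all 11443 genes with as many reads. It lay above 0 for 5 of the 38, where it did for 46.2% of all genes, and included 0 for 19. At least 2-fold lower by scaled counts were 7 of the 38, against 3.04% of all genes, and at least 2-fold higher were 3, against 21.9% of all genes. Scaling by a trimmed mean of log ratios gave 19 intervals below 0 and 3 above 0, those of Vegfa, Nrp2 and Icam1. Under that scaling 28.9% of all genes had intervals below 0 and 29.3% above 0.

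**Figure D3:**
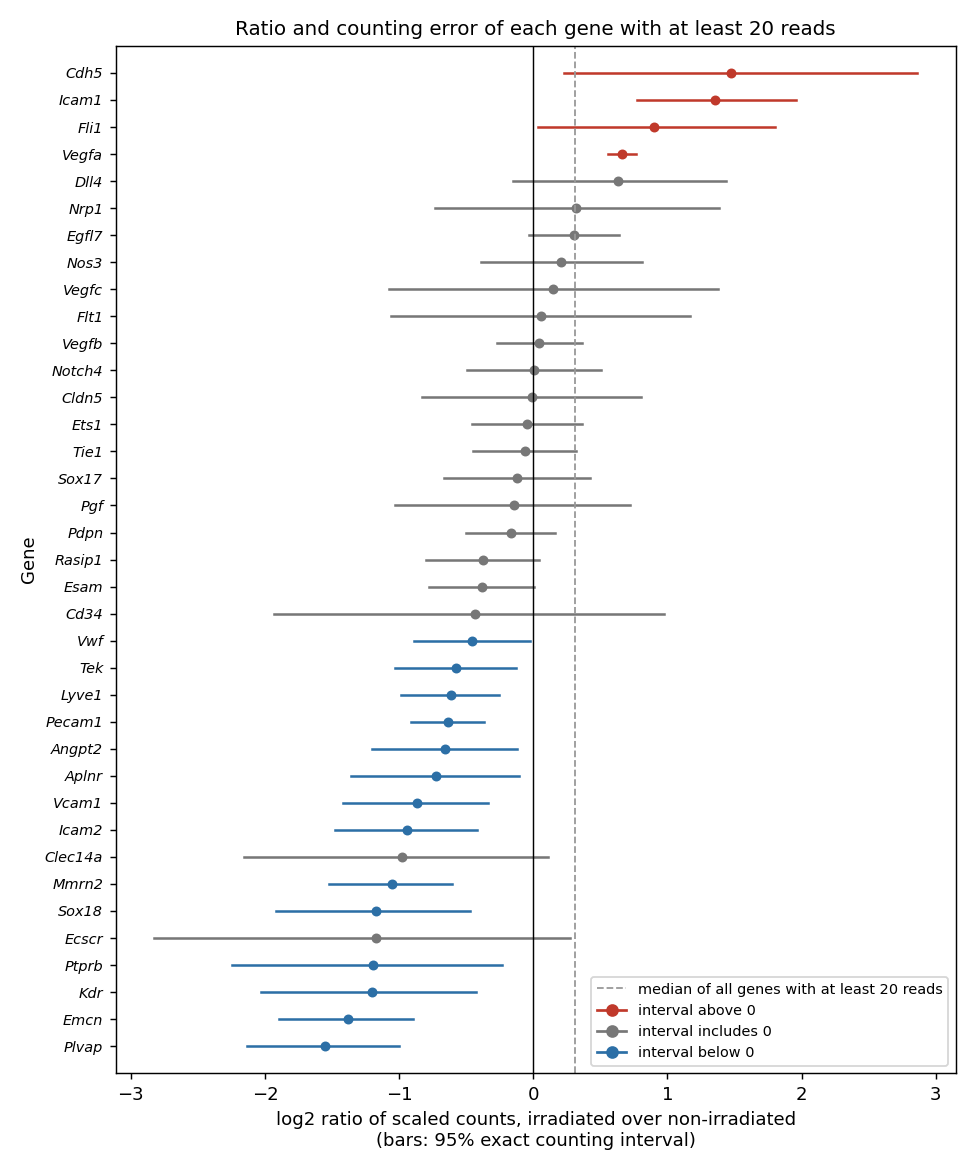
Log2 ratio of scaled counts, irradiated over non-irradiated, for the 37 genes with at least 20 reads and with reads in both libraries; bars are 95% exact counting intervals and the dashed line is the median of all genes with at least 20 reads. The interval of Emcn ends at -0.90 and that of Icam1 starts at 0.77; Nrp2, without reads in the non-irradiated library, is not drawn.

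Among blood endothelial identity genes, Emcn encodes endomucin, a surface sialomucin of capillaries and venules. Emcn (ENSRNOG00000022910, chromosome 2, 261184359 to 261264293, plus strand, in the coordinates of the deposited table, whose build is not given) stood at 3.12 FPKM in irradiated skin and 8.08 FPKM in non-irradiated skin, on 47 reads in irradiated skin and 136 in non-irradiated skin. Its log2 ratio was -1.14, and the interval of its scaled counts ran from -1.89 to -0.90. Plvap encodes the protein of the diaphragms that span endothelial fenestrae and caveolae. Plvap (ENSRNOG00000017676, chromosome 16, 19767918 to 19780232, minus strand) stood at 1.64 FPKM in irradiated skin and 4.77 FPKM in non-irradiated skin, on 36 reads in irradiated skin and 117 in non-irradiated skin. Its log2 ratio was -1.13, and that of its scaled counts was -1.55, with an interval of -2.13 to -1.002. The FPKM log2 ratios of Emcn and Plvap were the lowest of the 27 measured genes.

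Pecam1, the junctional adhesion molecule that is widely used to mark vessels, stood at 8.62 FPKM in irradiated skin and 13.3 FPKM in non-irradiated skin. It rested on 178 reads in irradiated skin and 307 in non-irradiated skin, with a log2 ratio of -0.58 and an interval of -0.91 to -0.37 for scaled counts. Icam2, an adhesion molecule of resting endothelium, stood at 3.12 FPKM in irradiated skin and 5.96 FPKM in non-irradiated skin. Mmrn2, a matrix protein of endothelium that binds CLEC14A, stood at 1.27 FPKM in irradiated skin and 2.64 FPKM in non-irradiated skin. The intervals of Icam2 (-1.48 to -0.42) and Mmrn2 (-1.52 to -0.60) lay below 0 as well.

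Vwf, which encodes von Willebrand factor, stood at 1.03 FPKM in irradiated skin and 1.41 FPKM in non-irradiated skin, with an interval of -0.89 to -0.03 that came close to 0. Ptprb, the endothelial phosphatase that dampens TIE2, had 13 reads in irradiated skin and 33 in non-irradiated skin. Esam, Rasip1, Ecscr and Clec14a had ratios between -0.67 and -0.29 and intervals that included 0. Under the trimmed-mean scaling the intervals of all 4 lay below 0, and those of Esam, Rasip1 and Clec14a did so too with the median of all genes set to 0 or with scaling to genes outside the 100 highest. Of these, Esam encodes a junctional molecule, Rasip1 acts in lumen formation, Ecscr in endothelial cell motility, and Clec14a encodes a lectin-like receptor of endothelium. Ecscr rested on 6 reads in irradiated skin and 15 in non-irradiated skin, and Clec14a on 11 in irradiated skin and 24 in non-irradiated skin.

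For Tie1, Egfl7, Cldn5 and Nos3 the interval included 0, and whether they differ from Pecam1 in their ratio was not tested. Tie1, an endothelial receptor tyrosine kinase, stood at 2.38 FPKM in irradiated skin and 2.48 FPKM in non-irradiated skin on 108 reads in irradiated skin and 125 in non-irradiated skin, with an interval of -0.45 to 0.32. Its log2 ratio of -0.04 was -0.24 under the trimmed-mean scaling. Relative to the median of all measured genes, the log2 ratios of Tie1, Cldn5 and Nos3 were -0.25, -0.20 and -0.10. Egfl7, a secreted endothelial protein, stood at 7.999 FPKM in irradiated skin and 6.46 FPKM in non-irradiated skin, with an interval of -0.03 to 0.64. Agpat2 overlaps Egfl7 on the other strand and stood at 1.84 FPKM in irradiated skin and 0.609 FPKM in non-irradiated skin. Cldn5, a claudin of endothelial tight junctions, stood at 4.38 FPKM in irradiated skin and 4.34 FPKM in non-irradiated skin. Its log2 ratio of 0.01 turned to -0.22 under the trimmed-mean scaling, and that of Egfl7 was then 0.01. Nos3, the endothelial nitric oxide synthase, stood at 1.06 FPKM in irradiated skin and 0.918 FPKM in non-irradiated skin.

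Relative to Pecam1, these genes differed between the libraries in both directions. The level of Emcn was 0.362 of that of Pecam1 in irradiated skin and 0.606 of it in non-irradiated skin. For Plvap the fractions were 0.190 in irradiated skin and 0.358 in non-irradiated skin. For Tie1 they were 0.276 in irradiated skin and 0.186 in non-irradiated skin, and for Egfl7 0.928 in irradiated skin and 0.484 in non-irradiated skin. Such fractions do not depend on the scaling between libraries.

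Cdh5, which encodes VE-cadherin and is a defining endothelial gene, was among the lower identity genes in level. It stood at 0.753 FPKM in irradiated skin and 0.270 FPKM in non-irradiated skin, on 20 reads in irradiated skin and 8 in non-irradiated skin. The interval of its scaled counts was 0.23 to 2.86, so Cdh5 lay on the other side of 0 from Pecam1, and under the trimmed-mean scaling its interval included 0. Cd34, which fibroblast-like cells of skin also express, had 8 reads in irradiated skin and 12 in non-irradiated skin.

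Robo4, an endothelial guidance receptor, was listed at 0 in both libraries. The table holds a further row, LOC100911068, described there as roundabout homolog 4-like with Robo4 as its synonym. That row spans 9951 bases, the same as the Robo4 row, and held 4 reads in irradiated skin and 6 in non-irradiated skin. Near-identical copies can share or lose reads, so no ratio is given for Robo4.

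Marker lists of other cell types also differed between the libraries. The 14 keratinocyte markers with a row summed to 3563 FPKM in irradiated skin and 243 FPKM in non-irradiated skin. All 13 measured ones were at least 2-fold higher, where 9.70% of all measured genes were. The 11 fibroblast markers summed to 867 FPKM in irradiated skin and 1277 FPKM in non-irradiated skin, a ratio of 0.679. The 4 red blood cell markers summed to 517 FPKM in irradiated skin and 769 FPKM in non-irradiated skin, a ratio of 0.673. The 12 muscle fibre markers summed to 252760 FPKM in irradiated skin and 274457 FPKM in non-irradiated skin. They took 24.5% of the reads in irradiated skin and 27.4% in non-irradiated skin. By the 2-fold rule 1 of the 11 fibroblast markers was lower, where 1.53% of all measured genes were, and none was higher. Of the 12 muscle fibre markers 2 were higher and none was lower, and all 3 measured red blood cell markers lay within 2-fold. The part of these markers in the ratios of endothelial genes was not tested.

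**Figure D4:**
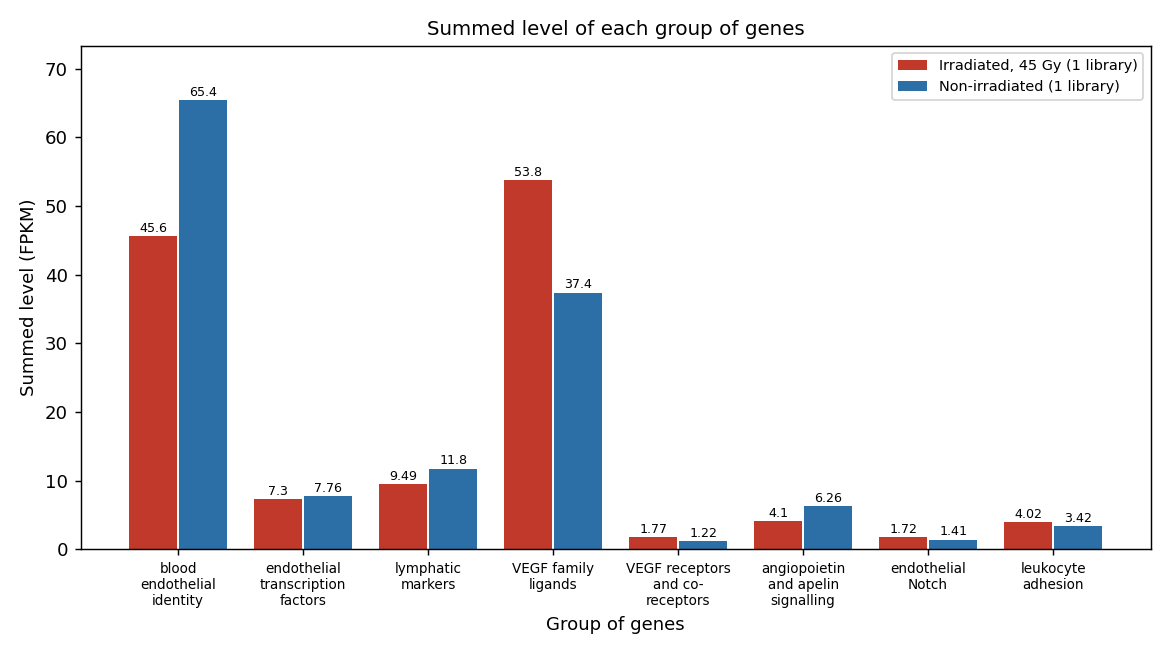
Summed level in FPKM of each of the 8 groups of genes, with the irradiated library on the left and the non-irradiated library on the right of each pair. The blood endothelial identity genes sum to 45.6 against 65.4 FPKM, and the VEGF family ligands to 53.8 against 37.4 FPKM.

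The endothelial transcription factors showed no common direction. Sox18, a SOX factor of blood and lymphatic vessel development, stood at 1.34 FPKM in irradiated skin and 3.005 FPKM in non-irradiated skin on 24 reads in irradiated skin and 60 in non-irradiated skin, with an interval of -1.92 to -0.47. Its relative Sox17, known in arterial endothelium, stood at 2.02 FPKM in irradiated skin and 2.18 FPKM in non-irradiated skin, with an interval of -0.67 to 0.42. Sox7 had 16 reads in irradiated skin and 2 in non-irradiated skin, a scaled ratio of 8.87 with a log2 interval of 1.06 to 6.31. The intervals of these 3 related SOX factors thus lay below 0, across 0 and above 0.

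Of the ETS family, Fli1 stood at 1.57 FPKM in irradiated skin and 0.834 FPKM in non-irradiated skin. Its interval of 0.04 to 1.80 included 0 when the libraries were scaled by the trimmed mean. Erg, a regulator of endothelial identity, had 6 reads in irradiated skin and 1 in non-irradiated skin, and its interval of -0.31 to 8.26 included 0. Ets1 stood at 1.59 FPKM in irradiated skin and 1.64 FPKM in non-irradiated skin. Blood cells also express Fli1 and Ets1. Leukocyte markers at 0 in both libraries included Cd3d, Ms4a1 and Cd79a, and the list summed to 6.81 FPKM in irradiated skin and 5.20 FPKM in non-irradiated skin. Not all of the list was at 0, as 3 of its 10 markers were measured, each with at least 20 reads. The interval lay above 0 for 1 of these 3, against 46.2% of all genes, and below 0 for none, against 14.4%. The part of leukocytes in the values of Fli1 and Ets1 was not tested.

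Among lymphatic markers, Lyve1, a hyaluronan receptor of lymphatic endothelium and some macrophages, stood at 2.76 FPKM in irradiated skin and 4.22 FPKM in non-irradiated skin, with an interval of -0.99 to -0.25. Macrophage markers summed to 244 FPKM in irradiated skin and 255 FPKM in non-irradiated skin. All 10 lay within 2-fold, where 9.70% of all measured genes were higher and 1.53% lower by that rule. By counting intervals 3 of the 10 lay below 0, against 14.4% of all genes, and none above 0, against 46.2%. Pdpn, podoplanin, which keratinocytes and fibroblasts also express, stood at 6.62 FPKM in irradiated skin and 7.41 FPKM in non-irradiated skin, with an interval of -0.50 to 0.16 that lay below 0 under the trimmed-mean scaling. Prox1, the transcription factor that specifies lymphatic identity and a defining marker, had 5 reads in irradiated skin and 7 in non-irradiated skin. A difference in Prox1 was not detectable at this depth.

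Of the VEGF family ligands, Vegfa had the highest level of all 45 genes. Vegfa (ENSRNOG00000019598, chromosome 9, 16232414 to 16247656, plus strand) stood at 43.7 FPKM in irradiated skin and 27.5 FPKM in non-irradiated skin. It rested on 1813 reads in irradiated skin and 1268 in non-irradiated skin, with a log2 ratio of 0.65 and an interval of 0.56 to 0.77 for scaled counts. Under the scalings tried, its log2 ratio lay between 0.36 and 0.65. Vegfb, whose product binds VEGFR1, stood at 8.09 FPKM in irradiated skin and 7.80 FPKM in non-irradiated skin. The level of Vegfa was 5.39 times that of Vegfb in irradiated skin and 3.52 times in non-irradiated skin. Vegfb itself had a log2 ratio of 0.05, which turned to -0.21 under the trimmed-mean scaling.

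Pgf, placental growth factor, stood at 1.28 FPKM in irradiated skin and 1.41 FPKM in non-irradiated skin. Vegfc, a ligand of the lymphatic receptor VEGFR3, had 13 reads in each library. The row named Figf, which RefSeq gives as a synonym of Vegfd, held 1 read in irradiated skin and 5 in non-irradiated skin. The keratinocyte markers, which were higher in irradiated skin as given above, differed in the same direction as Vegfa, and their part in its value was not tested.

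The receptors for these ligands were low, and none was measured by the rule above. Kdr, which encodes VEGFR2, the main signalling receptor for VEGF-A, stood at 0.282 FPKM in irradiated skin and 0.647 FPKM in non-irradiated skin. It rested on 20 reads in irradiated skin and 51 in non-irradiated skin, with an interval of -2.03 to -0.43, so it was lower while its ligand was higher. The level of Vegfa was 155 times that of Kdr in irradiated skin and 42.5 times in non-irradiated skin. Flt1, which encodes VEGFR1, had 15 reads in irradiated skin and 16 in non-irradiated skin, and Pan3 overlaps it on the other strand. Flt4, which encodes the lymphatic receptor VEGFR3, had 6 reads in irradiated skin and none in non-irradiated skin, which is at least 2.22-fold higher when 3 reads are taken as the floor of a library. That floor leaves out the counting error of the 6 reads, and the exact interval of the log2 ratio started at 0.38.

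Of the co-receptors, Nrp2, neuropilin 2, which serves VEGF-C and semaphorins, had 28 reads in irradiated skin and none in non-irradiated skin. With 3 reads as the floor of the non-irradiated library, its scaled count was at least 10.3-fold higher, while the exact interval, which also covers the counting error of the 28 reads, started at a log2 ratio of 2.98. Nrp2 (ENSRNOG00000031232, chromosome 9, 69307749 to 69419329, plus strand) stood at 0.710 FPKM in irradiated skin, and its row was listed at 0 in non-irradiated skin. Nrp1, neuropilin 1, had 18 reads in irradiated skin and 16 in non-irradiated skin. Both neuropilins also have roles outside vessels.

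In the angiopoietin pathway, ligand and receptor were lower together. Angpt2, the angiopoietin that destabilises vessels and is stored in endothelial cells, stood at 1.81 FPKM in irradiated skin and 2.83 FPKM in non-irradiated skin, with an interval of -1.20 to -0.12. Tek, which encodes the receptor TIE2, stood at 1.26 FPKM in irradiated skin and 1.88 FPKM in non-irradiated skin, with an interval of -1.03 to -0.13. The level of Angpt2 was 1.43 times that of Tek in irradiated skin and 1.51 times in non-irradiated skin. Mcph1 overlaps Angpt2 on the other strand and stood at 0.742 FPKM in irradiated skin and 0.0952 FPKM in non-irradiated skin. Angpt1, the stabilising ligand of TIE2, had 3 reads in irradiated skin and 5 in non-irradiated skin.

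Aplnr, the apelin receptor of growing vessels, stood at 0.810 FPKM in irradiated skin and 1.33 FPKM in non-irradiated skin, with an interval of -1.36 to -0.11. Its ligand gene Apln had 1 read in irradiated skin and none in non-irradiated skin. In the Notch pathway, the tip cell ligand gene Dll4 had 35 reads in irradiated skin and 25 in non-irradiated skin, with an interval of -0.15 to 1.44. The receptor gene Notch4 stood at 0.852 FPKM in irradiated skin and 0.848 FPKM in non-irradiated skin on 67 reads in irradiated skin and 74 in non-irradiated skin.

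The adhesion genes that recruit leukocytes stood on opposite sides. Icam1, the inducible ligand of leukocyte integrins, stood at 2.72 FPKM in irradiated skin and 1.06 FPKM in non-irradiated skin. Icam1 (ENSRNOG00000020679, chromosome 8, 22092134 to 22103927, plus strand) rested on 83 reads in irradiated skin and 36 in non-irradiated skin, with a log2 ratio of 0.85 and an interval of 0.77 to 1.96 for scaled counts. By scaled counts it was 2.56-fold higher. Vcam1, which binds the integrin VLA-4 on leukocytes, stood at 1.30 FPKM in irradiated skin and 2.37 FPKM in non-irradiated skin, with an interval of -1.42 to -0.34. The level of Icam1 was 2.09 times that of Vcam1 in irradiated skin and 0.447 times in non-irradiated skin. Keratinocytes and leukocytes can also express Icam1, and the part of the keratinocyte and leukocyte markers in its value was not tested.

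Further genes of vessels were taken from lists of their own. Of 28 further endothelial genes with a row, 17 were measured. Of these, 1 was higher and 2 were lower by 2-fold or more, and 14 differed by less, with a median log2 ratio of -0.29. Over all measured genes 9.70% were higher and 1.53% lower by that rule, and the median was 0.21. Gpihbp1, which anchors lipoprotein lipase on capillaries, stood at 3.14 FPKM in irradiated skin and 11.1 FPKM in non-irradiated skin. Klf2, a transcription factor induced by blood flow, stood at 3.21 FPKM in irradiated skin and 8.03 FPKM in non-irradiated skin. Rgcc went the other way at 20.4 FPKM in irradiated skin and 5.45 FPKM in non-irradiated skin. The abundant Klf4, which keratinocytes also express, stood at 26.5 FPKM in irradiated skin and 32.1 FPKM in non-irradiated skin, and Tspan7 at 23.1 FPKM in irradiated skin and 32.2 FPKM in non-irradiated skin. Of the 21 genes of this list with at least 20 reads, intervals lay below 0 for 10, against 14.4% of all genes, and above 0 for 3, against 46.2% of all genes.

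Of 7 measured arterial and venous genes, which include Aplnr from above, 3 were higher by 2-fold or more and 4 differed by less. Over all measured genes 9.70% were higher by that rule. The 3 were Notch1, Jag1 and Jag2, a Notch receptor and its ligands, which epidermis expresses as well. Notch1 stood at 4.88 FPKM in irradiated skin and 0.964 FPKM in non-irradiated skin. Jag1 stood at 7.20 FPKM in irradiated skin and 1.78 FPKM in non-irradiated skin, and Jag2 at 6.14 FPKM in irradiated skin and 1.36 FPKM in non-irradiated skin. Of 9 further lymphatic genes, 1 was measured, namely Tbx1, which is not restricted to lymphatics, at 6.42 FPKM in irradiated skin and 1.505 FPKM in non-irradiated skin. Mmrn1, a lymphatic marker, was at 0 in both libraries.

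Of 15 measured genes on the list of mural cells, the pericytes and smooth muscle that wrap vessels, 4 were higher by 2-fold or more and 11 differed by less, against 9.70% higher among all measured genes. Their median log2 ratio was 0.31, which is 0.098 above that of all measured genes. Des, desmin, which muscle fibres also express, was the most abundant, at 1345 FPKM in irradiated skin and 2266 FPKM in non-irradiated skin. The 4 were the contractile genes Cnn1, Myh11 and Tagln and the channel subunit gene Abcc9. Tagln stood at 51.3 FPKM in irradiated skin and 15.3 FPKM in non-irradiated skin, and Cnn1 at 6.04 FPKM in irradiated skin and 0.282 FPKM in non-irradiated skin. Abcc9 stood at 2.20 FPKM in irradiated skin and 0.550 FPKM in non-irradiated skin, and Myh11 at 9.72 FPKM in irradiated skin and 2.29 FPKM in non-irradiated skin. Pdgfrb, the defining receptor of pericytes, stood at 2.19 FPKM in irradiated skin and 1.89 FPKM in non-irradiated skin, with an interval of -0.14 to 0.56. The list had a higher median than the 13 measured blood endothelial identity genes, whose median was -0.48, and the difference between these medians was not tested. It is not restricted to mural cells, since Pdgfra is on the list of fibroblast markers as well. Of its 14 genes with at least 20 reads, intervals lay above 0 for 7, against 46.2% of all genes. They lay below 0 for 3, against 14.4% of all genes.

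Of 11 measured regulators of VEGF and hypoxia genes, Slc2a1 and Ndrg1 were the 2 that were higher by 2-fold or more, where 9.70% of all measured genes were, and 9 differed by less. Their median log2 ratio was -0.18, against 0.21 for all measured genes. Of the 13 genes of this list with at least 20 reads, intervals lay above 0 for 4, against 46.2% of all genes. They lay below 0 for 4, against 14.4% of all genes. Slc2a1, a glucose transporter, stood at 9.28 FPKM in irradiated skin and 1.33 FPKM in non-irradiated skin, and Ndrg1, a stress-responsive gene, at 14.7 FPKM in irradiated skin and 6.18 FPKM in non-irradiated skin. The abundant Egln1, an oxygen-sensing prolyl hydroxylase, stood at 79.3 FPKM in irradiated skin and 108.7 FPKM in non-irradiated skin, and Esrra at 18.4 FPKM in irradiated skin and 22.8 FPKM in non-irradiated skin. Of 13 measured inhibitors and matrix genes of angiogenesis, Thbs1 and Sema3f were the 2 that were higher by 2-fold or more, where 9.70% of all measured genes were, and 11 differed by less. Their median log2 ratio was 0.20, close to the 0.21 of all measured genes. Thbs1, thrombospondin 1, stood at 2.04 FPKM in irradiated skin and 0.176 FPKM in non-irradiated skin. Sema3f, a semaphorin that binds neuropilin 2, stood at 3.59 FPKM in irradiated skin and 0.939 FPKM in non-irradiated skin. The chemokine gene Cxcl12 stood at 16.5 FPKM in irradiated skin and 26.4 FPKM in non-irradiated skin. Its log2 ratio was -0.64 on the FPKM scale but -0.24 in scaled counts, with an interval of -0.47 to -0.01 for the latter. Ackr3, a scavenger receptor of CXCL12 listed as Cxcr7, stood at 12.4 FPKM in irradiated skin and 24.2 FPKM in non-irradiated skin.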

How the data were processed

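Skin mRNA of 1 irradiated and 1 non-irradiated library was read from 1 deposited table of 22714 protein-coding rows. FPKM values were made by the authors, per the file headers; cutadapt 1.9.3, HISAT2 2.0.4, Cufflinks and Cuffdiff are named, per the submitters' processing notes, without roles or settings. Libraries were stranded and depleted of ribosomal RNA, per the labels' protocols. The genome build, annotation release, strand setting and treatment of shared reads are each not given in the sources used here. The count columns deposited by the authors hold a scaled signal, not whole numbers. The most frequent value of each column (1.05 irradiated, 0.951 non-irradiated) was taken as 1 read, and 97.7% and 98.0% of values above 0 were whole multiples of it, to a tolerance of 0.01 reads that grows by 1e-05 for each read. No count model was run. Whether 1 read stands for a single read or a read pair is not stated.

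Rows sharing a symbol were summed to 22312 genes. Ratios used a pseudocount of 1 FPKM and a mean of at least 1 FPKM, with 2-fold as the rule for a difference and no p-value. Scaled-count ratios have 95% intervals by the exact Clopper-Pearson method, from reads, and floors are 3 reads per library; both cover counting error only, and PCR copies are not independent molecules. Intervals need at least 20 reads over both libraries unless a gene's reads are given beside them. All 45 matched genes were named; of the 6 further lists and 8 marker lists, genes at least 2-fold different (up to 4) and the 2 with the highest mean were to be named. Marker lists are given as sums and counts instead. Pdgfrb, Pdgfra, Mmrn1, the markers at 0, Fabp4, Pf4, the overlapping genes and the annotated lists were added after their values were seen. The members and lists were chosen with earlier results of these data known. The steps were tested on simulated counts. Python 3.11.15, numpy 2.4.6, pandas 2.3.3, scipy 1.17.1 and matplotlib 3.10.9 were used. The value of 1 marker gene is not reported here.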

Additional observations from a re-analysis of the deposited data

How the results depend on the processing

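No paired analysis was possible because each group had 1 library, and no library could be left out. Of the single-gene values under the alternatives, 245 moved by less than their counting error and 6 by more, for Plvap, Vegfa, Kdr and Nrp2. The 245 include settings that changed only the filter, where a gene's ratio could not move. Genes without reads in non-irradiated skin, such as Nrp2, were judged by a log2 difference of 1 instead. The called genes, Emcn and Plvap, did not change direction, which a different pseudocount on FPKM could not have brought about. Emcn and Plvap were at least 2-fold lower under every setting except a pseudocount of 5 FPKM, where 0 genes were, and a mean of at least 5 FPKM, where 7 genes were measured and 1 of them, Emcn, was lower, Plvap not being among them. With a pseudocount of 0.1 FPKM 4 were lower (Emcn, Plvap, Ecscr, Sox18) and 1 was higher (Icam1). Icam1 was also the 1 higher gene in scaled counts with a pseudocount of 10. Scaled counts without a pseudocount, a setting added after seeing the data, gave 7 lower and 3 higher. The median of the measured genes among the 45 was -0.32, where that of all genes was 0.21. It was -0.42 with a pseudocount of 0.1 and -0.14 with 5, where that of all genes was 0.25 and 0.13. With no filter it was -0.077, against 0.020 for all genes, and with a mean of at least 5 FPKM -0.14, against 0.11. It was -0.47 with the median of all genes set to 0. Under the trimmed mean it was -0.50, against -0.035 for all genes. When scaled to genes outside the 100 highest it was -0.42, against 0.10. The median of the identity genes was -0.48; it was -0.62 and -0.19 with pseudocounts of 0.1 and 5, -0.27 with no filter and -0.60 under the trimmed mean. Over all genes, 945 were higher and 149 lower; the counts were 1562 and 252 with a pseudocount of 0.1, 266 and 48 with 5, 321 and 84 with a mean of at least 5 FPKM, and 2511 and 348 for scaled counts without a pseudocount. Lower genes were 250 with the median set to 0 and 286 under the trimmed mean, where higher genes made up 73.3% and 69.4% of the called genes in place of 86.4%. The cause of these changes was not tested. Depth limits low genes: Flt1, Flt4, Nrp1, Prox1, Angpt1, Apln, Erg, Sox7, Ecscr, Cd34 and Vegfc had at most 18 reads in each library.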

Other observations

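The table's own annotation gave wider lists, which were chosen after the data were seen. Of 46 measured genes annotated to angiogenesis that are not among the 46 names above, 1 was at least 2-fold higher, none was at least 2-fold lower and the median log2 ratio was 0.35. Over all measured genes 9.70% were higher and 1.53% lower by that rule, and the median was 0.21. The higher gene was Lemd3, a protein of the inner nuclear membrane, at 2.81 FPKM in irradiated skin and 0.491 FPKM in non-irradiated skin. The lowest ratio was that of Ccdc80, a secreted matrix protein, at 55.4 FPKM in irradiated skin and 103.6 FPKM in non-irradiated skin.

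Of 37 measured genes annotated to the VEGF signaling pathway, 3 were at least 2-fold higher, Mapk13, Pla2g4b and Nras, and none was at least 2-fold lower, with a median log2 ratio of 0.08, against the same 9.70%, 1.53% and 0.21 over all measured genes. Mapk13, a p38 kinase that epithelia express, stood at 6.34 FPKM in irradiated skin and 0.437 FPKM in non-irradiated skin. Rac2, a GTPase of blood cells, had the lowest ratio, at 1.54 FPKM in irradiated skin and 3.75 FPKM in non-irradiated skin. Platelet genes, which can accompany Vwf, summed to 46.7 FPKM in irradiated skin and 25.1 FPKM in non-irradiated skin. Most of that sum came from Pf4 alone in each library, while Ppbp, Gp1ba and Gp9 were at 0 in both. Adipocyte markers summed to 175 FPKM in irradiated skin and 389 FPKM in non-irradiated skin, of which Fabp4, which capillary endothelium also expresses, made up 166 FPKM in irradiated skin and 383 FPKM in non-irradiated skin.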
